A study of Sus scrofa with 12 samples.

Results

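The genes of the myostatin and activin pathway were examined for differences in chromatin accessibility in skeletal muscle of the back, between Luchuan and Duroc pigs. The set held 10 genes chosen for their place in the pathway, with earlier results of these data already known. They are the ligand genes MSTN and INHBA, the ligand-binding inhibitors FST and FSTL3, the receptors ACVR2A, ACVR2B and TGFBR1, and the intracellular transducers SMAD2, SMAD3 and SMAD7. An open region was assigned to a gene when its midpoint lay in the gene body on Sscrofa11.1 or within 10 kb of it. This gave 173 of the 217213 intervals in the deposited peak table, which merged into 99 of 140081 regions. Every one of the 10 genes had at least 2 regions. The other genes with a region in such a window, of 16987 in all, served as background.

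ATAC-seq, in which a transposase cuts open DNA so that reads pile up over accessible chromatin, was performed on longissimus dorsi muscle. The groups were 3 Luchuan and 3 Duroc males, all 180 days old and kept under the same conditions with free access to food. No experimental treatment or allele was named in the labels. Duroc is a lean breed and Luchuan an obese one whose fibers in this muscle are thinner. The table holds 1 read count per interval and breed, so no value below has a spread between animals and no test between the breeds was possible.

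Myostatin is a secreted growth factor of the TGF-beta family that muscle fibers make themselves, and it is best known as a brake on muscle mass, since cattle, dogs and mice without it are heavily muscled. Myostatin and the activins, which are dimers of inhibin beta chains such as the product of INHBA, bind the type II receptors ACVR2B and ACVR2A. These recruit a type I receptor, which for myostatin can be TGFBR1. The type I receptor phosphorylates SMAD2 and SMAD3, and the phosphorylated proteins enter the nucleus with SMAD4. Follistatin, from FST, and its relative FSTL3 capture the ligands outside the cell, and SMAD7 blocks the receptors from within.

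Over all 99 regions the pathway genes showed almost the same accessibility in both breeds. The regions held 23298 Duroc reads and 15797 Luchuan reads. Luchuan counts were multiplied by 1.48 so that the median log2 ratio over the 68776 regions common to both breeds was 0. All log2 ratios below are of Luchuan over Duroc after this scaling, with 1 added to each count, and the range in parentheses comes from the share of Luchuan among the reads (95% Clopper-Pearson). These ranges cover counting error only. The sources used here name no molecular identifiers, so several reads may stem from 1 molecule. The log2 ratio of the reads summed over the 10 genes was 0.00079 (-0.028 to 0.030). This value depends on the scaling and was -0.19 (-0.22 to -0.17) when the clean reads of the libraries set the factor, which moved the median of all genes by -0.19 as well. The median log2 ratio of the 99 regions was 0.0049, with an interquartile range of -0.21 to 0.19, and that of all 140081 regions was -0.0090, with an interquartile range of -0.34 to 0.32.

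A region was called 2-fold higher in one breed when its log2 ratio was 1 or more in size and its counting interval excluded 0. Only 2 of the 99 regions, 1 at MSTN and 1 in TGFBR1, were called higher in Luchuan, where 6.38% of all regions were called. None of the 99 was called higher in Duroc, where 4.99% of all regions were called. With clean reads as the scale, 1 was called higher in Luchuan and 2 in Duroc. That scale moved the median of all regions by -0.20, and the share of all regions called with it is not given here. The regions of these genes were better covered than most, with a median of 187 reads of both breeds together against 99 over all regions. Of the 87 with at least 50 reads, 1 was called higher in Luchuan, beside 2.45% of all such regions, and none was called higher in Duroc, beside 5.22%. The 39 regions with 300 reads or more had a median log2 ratio of 0.0052 and none was called, and of all regions at that depth 2.40% were called in either direction. Without regard to the size of the difference, the counting interval excluded 0 for 7 of the 99 regions on the Luchuan side, against 13.4% of all regions. It did so for another 7 on the Duroc side, against 15.7% of all regions.

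**Figure D1:**
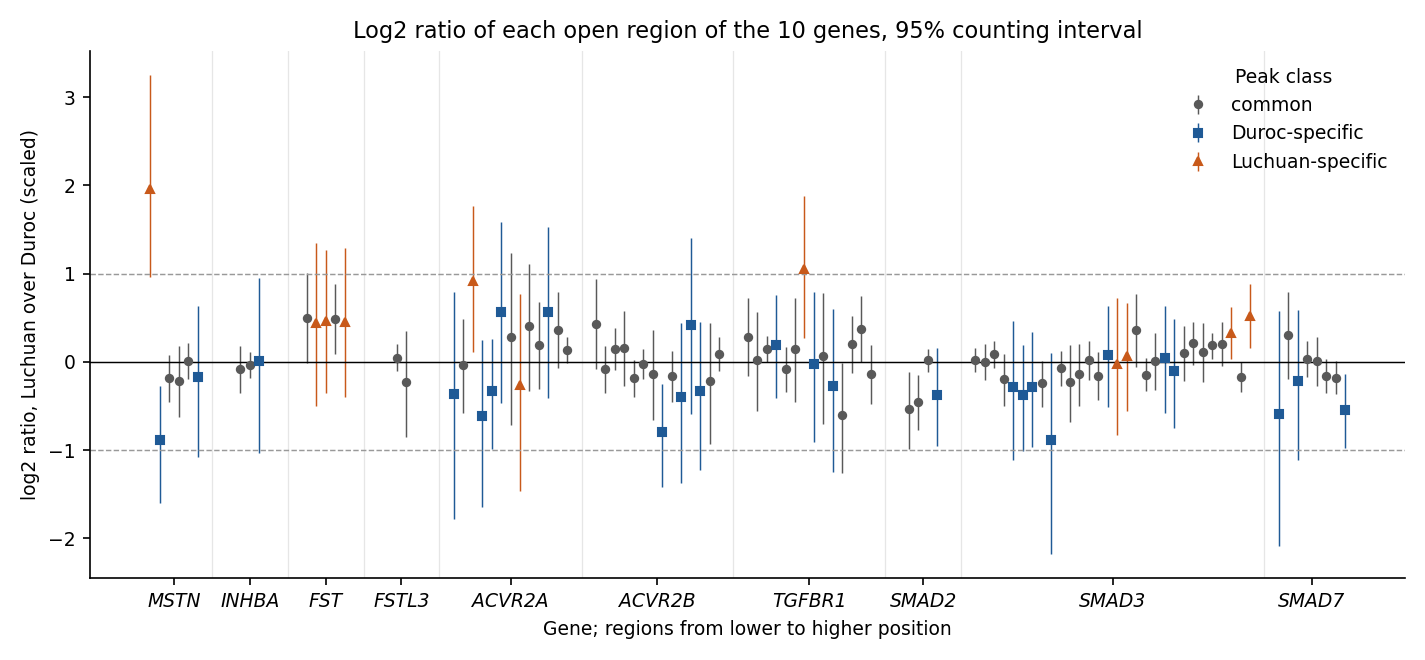
Log2 ratio of Luchuan over Duroc reads (y axis, after scaling) for each of the 99 regions, grouped by gene and ordered by position within a gene (x axis). Points are single regions, bars are 95% Clopper-Pearson intervals for counting error, colors and shapes give the peak class, and dashed lines mark a 2-fold difference. Points scatter around 0 for most genes, all 5 points of FST lie between 0.44 and 0.50, and the highest point, 1.96, belongs to MSTN.

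Of the 99 regions, 62 were called as peaks in both breeds, 26 in Duroc alone and 11 in Luchuan alone. Common regions made up 62.6% here and 49.1% of all regions. They carried 91.9% of the Duroc reads of the set, with a median of 267.5 Duroc and 158.5 Luchuan reads, and their summed log2 ratio was 0.0024 (-0.028 to 0.033). The Duroc-specific regions were weak, with medians of 36.5 Duroc and 20.5 Luchuan reads, and their median log2 ratio was -0.28. The Luchuan-specific regions had medians of 27 Duroc and 28 Luchuan reads and a median log2 ratio of 0.45. These classes were set by peak calls on the same reads, so a lean toward the breed of the call is built in. Over all regions the medians were -0.36 for Duroc-specific and 0.77 for Luchuan-specific ones. The regions called 2-fold were 2 of the 11 Luchuan-specific ones and none of the 26 Duroc-specific ones, beside 30.5% and 13.7% of all regions of these classes.

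Summed per gene, none of the 10 passed 1.5-fold with an interval that excluded 0. Among all genes with a region 4.4% passed as higher in Luchuan and 2.73% as higher in Duroc. The interval alone excluded 0 on the Luchuan side for FST, ACVR2A and TGFBR1, against 22.5% of all genes, and on the Duroc side for SMAD7, against 25.5%. The gene ratios ran from -0.11 at SMAD7 to 0.48 at FST. The median over all genes was -0.0058 and their middle 50% ran from -0.15 to 0.15, and FST was the single member outside that range.

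**Figure D2:**
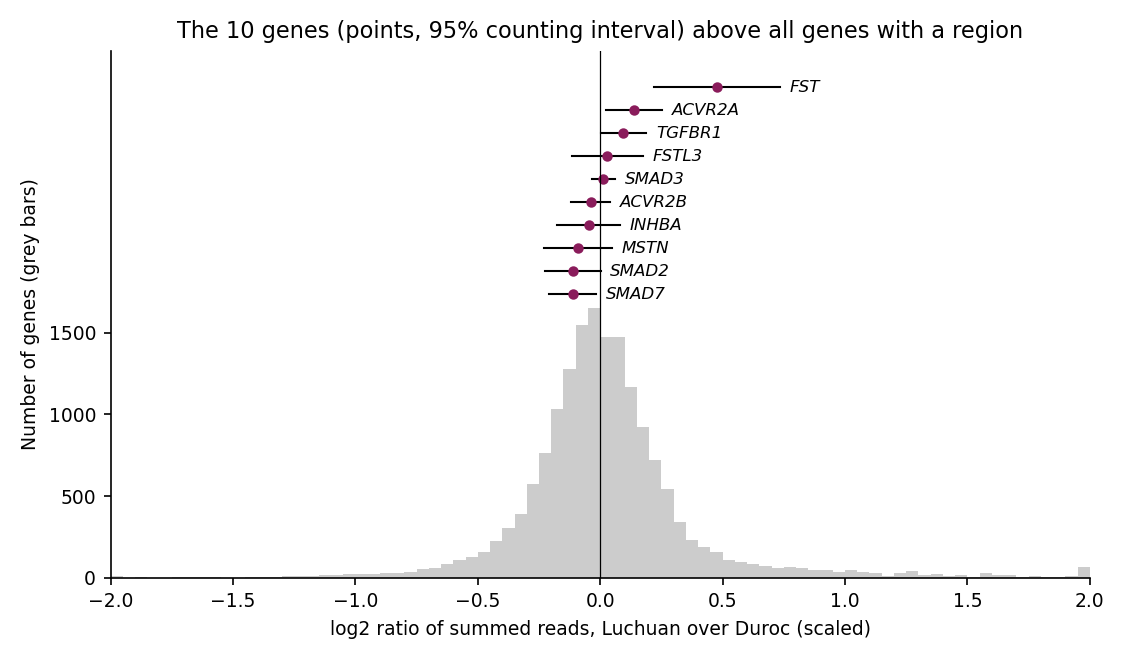
Log2 ratio of the reads summed over the regions of each gene (x axis). Points with bars are the 10 genes with 95% counting intervals, and grey bars count all 16987 genes with a region (y axis), with ratios beyond 2 in size placed in the outermost bars. FST, at 0.48, stands to the right of the other 9 genes, which lie between -0.11 and 0.14.

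MSTN, the myostatin gene, lies on chromosome 15 from 94623526 to 94628440 and had 6 regions with 1097 Duroc and 698 Luchuan reads. Its log2 ratio was -0.09 (-0.23 to 0.05), and 33.9% of all genes had a ratio as low or lower. The strongest region spanned the end of the gene with the higher coordinate, from 94627972 to 94628801, with 503 Duroc and 343 Luchuan reads. Its log2 ratio was 0.01 (-0.19 to 0.21), so the breeds did not differ there beyond counting error. Its midpoint also lay in C15H2orf88, whose body overlaps that end of MSTN.

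Inside MSTN, 326 Duroc and 194 Luchuan reads fell in the region from 94625679 to 94626205, a log2 ratio of -0.18 (-0.45 to 0.07). The region from 94626525 to 94626791 had 146 and 85 reads, a ratio of -0.21 (-0.62 to 0.18). Neither interval excluded 0. The differences around MSTN stood in regions outside the gene. On the side of lower coordinates, the region from 94615821 to 94615978 had 28 Luchuan reads against 10 Duroc reads, a log2 ratio of 1.96 (0.96 to 3.25), and it was the larger of the called regions. Nearer to the gene, the Duroc-specific region from 94621649 to 94621890 had 78 reads in Duroc and 28 in Luchuan, a ratio of -0.88 (-1.59 to -0.28), which stayed under 2-fold. These flanking regions thus pointed in opposite directions, and the remaining one, from 94635830 to 94636031 beyond the other end and within C15H2orf88, had 34 and 20 reads and a ratio of -0.18 (-1.08 to 0.63).

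**Figure D3:**
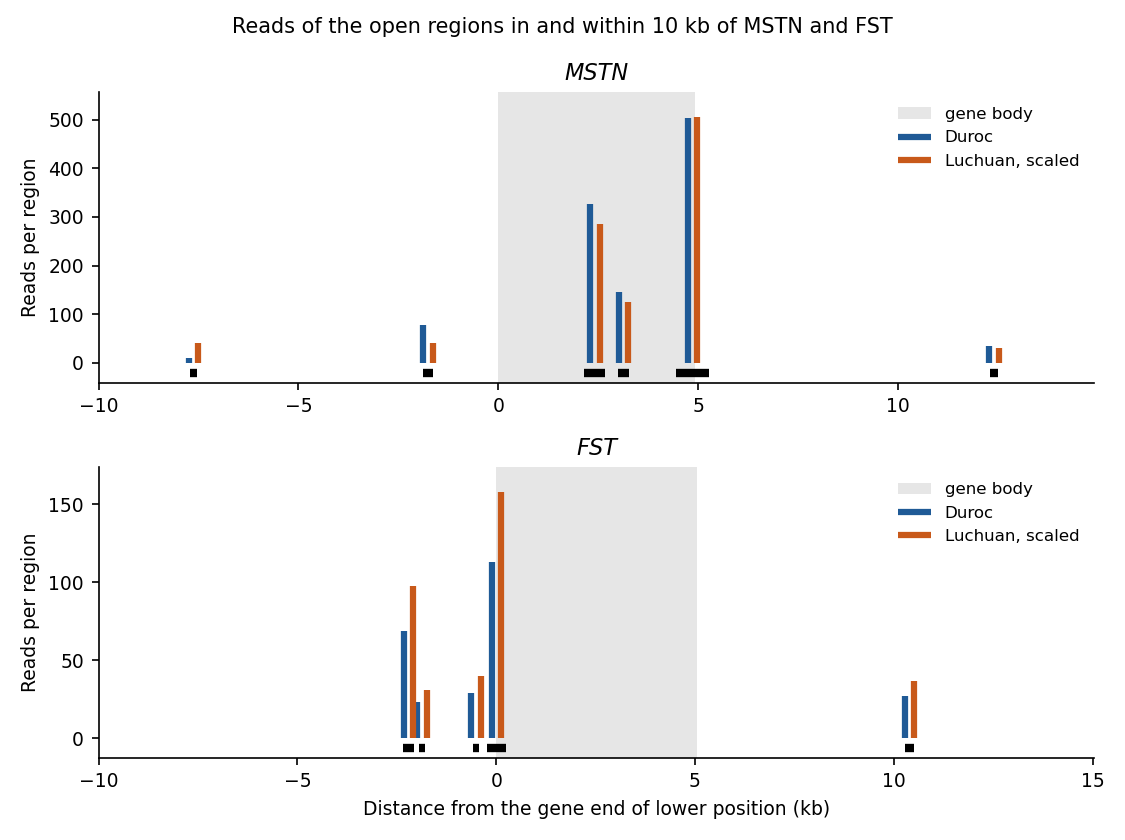
Reads per region (y axis) along MSTN and FST, by distance in kb from the gene end of lower position (x axis). Blue bars are Duroc counts, orange bars Luchuan counts after scaling, black bars the extent of each region and grey the gene body. At MSTN the tallest bars of both breeds stand together at the end of higher position, and at FST the Luchuan bar is the taller one in all 5 regions.

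The other ligand gene, INHBA, encodes the chain of activin A. Its entry in the gene table is 1750 bases long, on chromosome 12 from 53115379 to 53117128, is not classed as protein-coding and lies among KDM6B, TMEM88 and NAA38. The 3 regions in its window held 1257 reads in Duroc and 824 in Luchuan, a log2 ratio of -0.05 (-0.18 to 0.08). The midpoint of the strongest, from 53111479 to 53112676 with 934 Duroc and 617 Luchuan reads, lay in NAA38 and that of the next lay in KDM6B. No region overlapped the INHBA entry itself. In other mammals INHBA lies beside GLI3, which the same table places on chromosome 18, so this window may not be the INHBA locus, and its values here and below are those of the table entry and its neighbors. Without it, the other 9 genes had 96 regions and a summed log2 ratio of 0.0035 (-0.027 to 0.033).

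Among the inhibitors, FST was the gene of the set with the largest difference. It lies on chromosome 16 from 32806341 to 32811382 and had the fewest reads, 261 in Duroc and 246 in Luchuan over 5 regions. Before scaling the breeds were thus nearly equal, while each of the other 9 genes had a clear surplus of Duroc reads. After scaling, the log2 ratio was 0.48 (0.22 to 0.73), a 1.39-fold higher accessibility in Luchuan. Of all genes, 93.1% had a ratio as low or lower. This rank takes no account of read number, and the median over all genes was 1002 Duroc reads.

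The excess of Luchuan reads was spread evenly over the FST regions. The strongest, from 32806114 to 32806575 across the end of lower coordinate, had 113 Duroc and 107 Luchuan reads, a log2 ratio of 0.48 (0.09 to 0.88). Outside the gene on the same side, the region from 32804004 to 32804270 had 69 and 66 reads and a ratio of 0.50 (-0.01 to 1.01). The other 3 regions were Luchuan-specific, a class set by peak calls on these same reads, and held 23 to 29 Duroc and 21 to 27 Luchuan reads, with ratios from 0.44 to 0.46. Read singly, the interval of 1 of the 5 excluded 0. Weak regions leaned toward Luchuan over the whole table, with a median log2 ratio of 0.24 for all regions with 20 to 49 reads. The median was -0.05 for regions with at least 50 and fewer than 100 reads. It was -0.11 for those with at least 100 and fewer than 300 reads. With a factor fitted to read level instead, the FST ratio was 0.46 (0.20 to 0.72). That factor was fitted over common regions only, so it leaves out any lean of Luchuan-specific regions. Whether read level accounts for the FST ratio was not tested. With the clean reads of the libraries as the scale, the FST ratio was 0.28 (0.02 to 0.54).

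**Figure D4:**
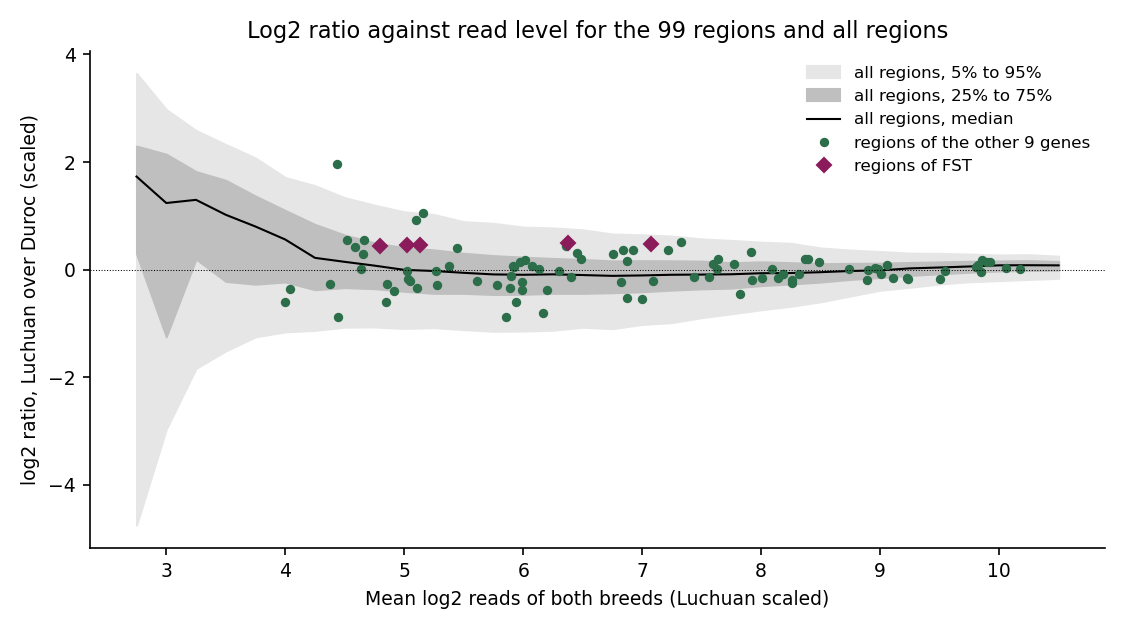
Log2 ratio of Luchuan over Duroc (y axis) against the mean log2 reads of both breeds (x axis, Luchuan scaled) for the 99 regions. The black line and grey bands give the median and the 25% to 75% and 5% to 95% ranges of all 140081 regions in bins of read level. The 5 FST regions (diamonds) lie at 0.44 to 0.50, within the 5% to 95% range of all regions at their read level.

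FSTL3, whose product binds myostatin and activins as follistatin does, showed no such difference. The gene occupies chromosome 2 from 77656655 to 77662608, with 2 regions, both common. Inside it, a strong region from 77657976 to 77658964 held 878 Duroc and 615 Luchuan reads, which is 92.8% of the Duroc reads of the gene. The log2 ratio there was 0.05 (-0.10 to 0.20). The region across the end of higher coordinate, from 77662541 to 77662706, had 68 and 39 reads, a ratio of -0.23 (-0.85 to 0.35). The gene as a whole stood at 0.03 (-0.12 to 0.17).

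The type II receptor genes differed little. ACVR2A, on chromosome 15 from 4177333 to 4259056, had 13 regions, which held 1448 reads in Duroc and 1081 in Luchuan. The log2 ratio was 0.14 (0.02 to 0.25), with 73.8% of all genes as low or lower, but -0.06 (-0.17 to 0.06) when the libraries were scaled by clean reads. Its strongest region, from 4259342 to 4260333, lay 286 bases beyond the end of higher coordinate, with 924 and 687 reads and a ratio of 0.13 (-0.01 to 0.28). The region across that end, from 4258836 to 4259094, had 100 and 87 reads and a ratio of 0.36 (-0.07 to 0.79). The single interval that excluded 0 belonged to a Luchuan-specific region from 4171927 to 4172147, with 24 Duroc and 31 Luchuan reads and a ratio of 0.92 (0.11 to 1.76), and its midpoint lay in the neighboring ORC4.

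ACVR2B, the main receptor of myostatin, lies on chromosome 13 from 23237699 to 23276086. Its 14 regions had 3189 Duroc and 2104 Luchuan reads, a log2 ratio of -0.04 (-0.12 to 0.04). The strongest region, from 23243935 to 23244748 inside the gene, had 751 and 500 reads and a ratio of -0.02 (-0.19 to 0.14). Across the end of lower coordinate, the region from 23237576 to 23238296 had 341 and 255 reads and a ratio of 0.14 (-0.10 to 0.38). Only a Duroc-specific region inside the gene, from 23257454 to 23257704, stood apart from 0. It had 94 and 36 reads and a ratio of -0.80 (-1.42 to -0.25).

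TGFBR1 encodes a type I receptor that TGF-beta and myostatin share, and its body runs on chromosome 1 from 240842735 to 240918267. Its 14 regions held 2233 reads in Duroc and 1616 in Luchuan, a log2 ratio of 0.10 (0.0015 to 0.19), which turned to -0.10 (-0.19 to -0.0075) with clean reads as the scale. No region overlapped either end of this gene. The strongest region, from 240859724 to 240860788, began 16989 bases inside it and had 906 Duroc and 678 Luchuan reads, a ratio of 0.14 (-0.0026 to 0.29). The other region called 2-fold lay inside the gene from 240872264 to 240872429, was Luchuan-specific and had 34 Luchuan and 24 Duroc reads, a ratio of 1.05 (0.27 to 1.88). A common region from 240900531 to 240900813, also inside the gene, differed in the opposite direction, with 75 Duroc and 33 Luchuan reads and a ratio of -0.60 (-1.26 to -0.01).

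SMAD2 and SMAD3 encode the transducers that carry the signal to the nucleus. SMAD2, on chromosome 1 from 97415360 to 97511388, had only 4 regions in a gene of 96029 bases, with 1633 reads in Duroc and 1024 in Luchuan, a log2 ratio of -0.11 (-0.23 to 0.0016). The region across the end of higher coordinate, from 97510728 to 97512037, held 1146 and 786 reads, the most of any of the 99 regions, and its ratio was 0.02 (-0.12 to 0.15). Just beside it inside the gene, the region from 97510240 to 97510677 had 264 and 130 reads and a ratio of -0.46 (-0.78 to -0.15). A further region inside the gene, from 97432277 to 97432877, had 140 and 65 reads and a ratio of -0.53 (-0.99 to -0.11). The weaker SMAD2 regions thus leaned toward Duroc while the strongest was equal.

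SMAD3, on chromosome 1 from 164998457 to 165124455, held 30 of the 99 regions, with 8965 Duroc and 6128 Luchuan reads. Its log2 ratio of 0.01 (-0.03 to 0.06) had the narrowest interval of the 10 genes. The strongest region, from 164997480 to 164998666 across the end of lower coordinate, had 1058 and 729 reads and a ratio of 0.02 (-0.11 to 0.16). Intervals that excluded 0 belonged to 4 regions, all in the last part of the window. The region from 165118682 to 165119551 had 866 and 667 reads and a ratio of 0.19 (0.04 to 0.33), and a Luchuan-specific one from 165123869 to 165124242, where SMAD3 overlaps AAGAB, had 214 and 182 reads and a ratio of 0.33 (0.03 to 0.62). Beyond the gene, in AAGAB, the region from 165128446 to 165129209 had 768 and 461 reads and a ratio of -0.17 (-0.34 to -0.0065), and the Luchuan-specific one from 165130342 to 165130680 had 133 and 129 reads and a ratio of 0.52 (0.16 to 0.88). Split at the middle of the gene, a division made after the values were seen, the 13 lower regions summed to -0.04 (-0.11 to 0.03) and the 17 upper ones to 0.06 (-0.0018 to 0.13).

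SMAD7, the inhibitory member, lies on chromosome 1 from 98512800 to 98543924 and had 8 regions with 2269 Duroc and 1422 Luchuan reads. Its log2 ratio of -0.11 (-0.21 to -0.02) was the lowest of the set, with SMAD2 at the same rounded value. The interval included 0 when the factor was fitted to read level (-0.17 to 0.03) or set by total reads (-0.18 to 0.02). It also did so with the gene body alone (-0.16 to 0.08), with 2 kb and with common regions only. With clean reads as the scale it excluded 0 (-0.40 to -0.21). The signal was concentrated at the end of higher coordinate. The region across it, from 98543378 to 98544150, had 582 and 352 reads and a ratio of -0.16 (-0.36 to 0.03). The next, from 98544154 to 98544967, had 639 and 382 reads and a ratio of -0.18 (-0.37 to 0.0042). Further out, a Duroc-specific region from 98546996 to 98547275 had 154 and 71 reads and a ratio of -0.54 (-0.98 to -0.14), the single SMAD7 region whose interval excluded 0.

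The summed ratio was close to 0 wherever the regions lay relative to their gene. The 8 regions across a gene end summed to a log2 ratio of 0.03 (-0.05 to 0.10), the 66 inside a gene to -0.0030 (-0.041 to 0.035) and the 25 outside to -0.0074 (-0.068 to 0.053). Regions across a gene end were the strongest, with a median of 422 Duroc reads against 100 inside and 79 outside.

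The genes differed far more from each other than between the breeds. Per kb of open region, FSTL3 had 819 Duroc reads (95% Poisson interval, 768 to 873) and FST had 205 (181 to 232), at the 97.3rd and 14.4th percentiles of all genes. Between them came SMAD3 with 689 reads per kb, SMAD2 with 643, INHBA with 619, SMAD7 with 618, ACVR2B with 549, MSTN with 493, ACVR2A with 405 and TGFBR1 with 385. In Luchuan after scaling, FSTL3 had 836 reads per kb (773 to 902) and FST 285 (251 to 323). The order was the same in both breeds except that INHBA and SMAD2 exchanged places. Neighbors in this order were compared by the ratio of their reads per kb, with 95% Clopper-Pearson limits. In Duroc the ratio could not be told from 1 for SMAD2 over INHBA (1.04, 0.966 to 1.12), INHBA over SMAD7 (limits 0.934 to 1.07) and ACVR2A over TGFBR1 (1.05, 0.985 to 1.13), and the limits excluded 1 for the other 6 pairs of neighbors. The closest of those was SMAD3 over SMAD2, at 1.07 (1.02 to 1.13). In Luchuan the limits included 1 for INHBA over SMAD2, SMAD2 over SMAD7, SMAD7 over ACVR2B and MSTN over ACVR2A. MSTN, at 493 in Duroc (464 to 523) and 463 in Luchuan (429 to 498), was near the median over all genes, 439 and 427 reads per kb.

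**Figure D5:**
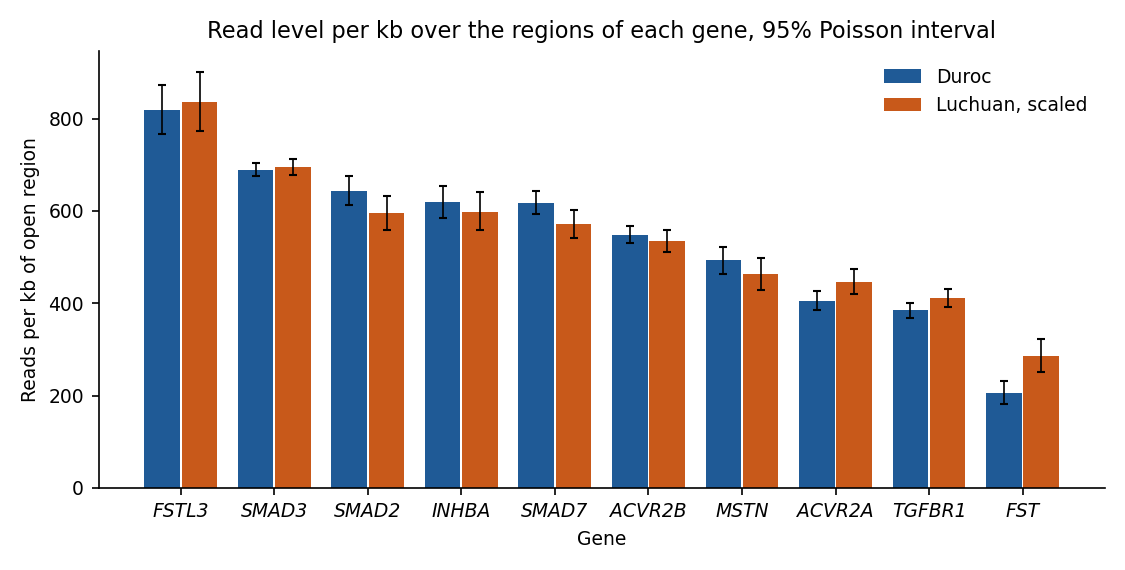
Reads per kb of open region (y axis) for each gene (x axis), in Duroc (blue) and in Luchuan after scaling (orange), with 95% Poisson intervals for counting error. Heights fall from FSTL3, at 819 in Duroc and 836 in Luchuan, to FST, at 205 in Duroc and 285 in Luchuan, and the bars of a pair are close for every gene but FST.

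Another 49 genes of TGF-beta and activin signaling were listed as ligands, receptors, inhibitors, proteases, transducers and targets, and 48 had a region. GREM1, a secreted inhibitor of BMPs, had none within 10 kb. Of the 48, 3 passed 1.5-fold as higher in Luchuan and none as higher in Duroc, beside the 4.4% and 2.73% of all genes given above, and the median of their log2 ratios was -0.04. TLL1, a protease of the family that releases myostatin from its latent form, had 2 regions with 142 Duroc and 194 Luchuan reads and a log2 ratio of 1.01 (0.69 to 1.33). INHBB, which encodes the chain of activin B, had 3 weak regions with 51 and 62 reads and a ratio of 0.84 (0.29 to 1.41). TGFBI, a matrix protein induced by TGF-beta, had 7 regions with 456 and 515 reads and a ratio of 0.74 (0.55 to 0.92). Without regard to size, intervals excluded 0 for 11 of the 48 on the Luchuan side and for 15 on the Duroc side, where 22.5% and 25.5% of all genes did so. Of their 563 regions, 15 were called 2-fold higher in Luchuan (2.66%) and 23 in Duroc (4.09%), beside 6.38% and 4.99% of all regions.

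Marker genes of the tissue were checked within 2 kb of each gene. All 10 muscle fiber markers had regions, with 500 to 1295 Duroc reads per kb, and the summed list had a log2 ratio of -0.14 (-0.15 to -0.12), from -0.77 at MYH4 to 0.04 at TTN. TTN, which encodes the giant spring protein of the sarcomere, held 56.5% of the Duroc reads of the list, and without it the other 9 markers, all below 0, summed to -0.40 (-0.42 to -0.37). The satellite cell markers PAX7 and MYF5 had 405 Duroc reads per kb together and a log2 ratio of -0.19 (-0.28 to -0.10). They went opposite ways, with PAX7 at -0.21 (-0.31 to -0.12) and MYF5 at 0.50 (0.0067 to 0.99). PAX7 held 2524 of their 2597 Duroc reads, so the sum is mostly that of PAX7. Of the adipocyte, endothelial and fibroblast markers, CIDEC, CDH5 and LUM had no region. Summed levels were 187 Duroc reads per kb for adipocytes, 240 for endothelium, 326 for fibroblasts and 342 for immune cells, and the intervals of the breed ratio of these 4 sums included 0. Single markers among them went both ways. In endothelium the log2 ratios were 0.62 (0.13 to 1.11) at TEK and 0.73 (0.22 to 1.25) at KDR, with 72 and 62 Duroc reads. PECAM1, with 528 Duroc reads, was at -0.16 (-0.37 to 0.04). Of the fibroblast markers, COL3A1 was at 0.66 (0.36 to 0.95), PDGFRA at -0.10 (-0.26 to 0.06) and COL1A1 at -0.14 (-0.65 to 0.34). CD3E of T cells was at 1.21 (0.19 to 2.37) on 13 Duroc and 21 Luchuan reads. PTPRC, common to immune cells, stood lower at -1.06 (-1.76 to -0.46). The intervals of CD68, CSF1R and the adipocyte markers included 0. Genes of other tissues were not uniformly closed, since 4 of 5 had a region, with 536 Duroc reads per kb together and a log2 ratio of -0.27 (-0.38 to -0.17), in which GFAP alone had an interval that excluded 0. In whole muscle a smaller share of a cell type and less open chromatin per cell cannot be told apart, and the part of these cell types in the FST difference was not tested.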

How the data were processed

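ATAC-seq of 3 Duroc and 3 Luchuan boars was used, and RNA-seq was not analysed here. Per the labels, reads were trimmed by Trimmomatic (0.36) and mapped to Sscrofa11.1, an assembly from a Duroc animal, by Bowtie2. MACS2 called the peaks. Other versions are not given in the sources used here. The authors deposited raw read counts per peak interval, in 1 column per breed that names no replicate and was read as pooled. Their rescaled fold change, mean signal and P-value were not used. Starts were read as counted from 0, which makes the shortest interval 150 bases, and are given from 1. Common intervals that overlapped or touched were joined, and the longest stood for its region. The regions held 20759894 Duroc and 13746020 Luchuan reads. With 1 count per breed no test was made, and precision is given as counting intervals.

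Gene positions came from the RefSeq table of Sscrofa11.1, matched by symbol or synonym. It holds no strand, exons or sequence. The members and lists were chosen with earlier results of these data known. Every member was described, with the regions called 2-fold, those across a gene end and the strongest of each gene. Other pathway genes were named past 1.5-fold. Further regions were named after their values were seen. Alternatives covered scaling, merging, window, read minimum and pseudocount. Software was SciPy 1.17.1, NumPy 2.4.6, Matplotlib 3.10.9 and pandas 2.3.3, run in Python 3.11.15.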

Additional observations from a re-analysis of the deposited data

How the results depend on the processing

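Of 178 values recomputed under 14 alternatives, 160 kept their main value within its counting interval or, for counts, within 1.5 times. None of the 138 gene ratios reached 1.5-fold, and that of FST ran from 0.28 to 0.51. Scaling by clean reads moved the median of all genes by -0.19, and gave log2 ratios of -0.29 for MSTN, -0.24 for INHBA, -0.17 for FSTL3, -0.23 for ACVR2B, -0.31 for SMAD2, -0.18 for SMAD3, -0.31 for SMAD7 and -0.19 over all members. ACVR2A and TGFBR1 reversed to -0.055 and -0.10. It left 1 region called higher in Luchuan and 2 in Duroc, and the share of all regions called at that scale is not given. These shifts come from the factor itself, which is the same for every gene and leaves their ranks as they were. Over all members, scaling by total reads gave 0.034 and the fitted line 0.045. With the gene body alone, with 2 kb and with a minimum of 50 reads, 1 region was called higher in Luchuan, since fewer regions entered. With 50 kb, 3 regions of 179 were called higher in Luchuan and 4 in Duroc, beside 6.38% and 4.99% of all regions. Leaving out INHBA, or the regions in another gene, was chosen after seeing the data and moved no value beyond these limits. Leaving TTN out of the fiber markers was chosen in the same way. No paired analysis was possible because each breed has 1 column of counts without replicate numbers, and no replicate could be left out for the same reason. Counting depth limits the weak regions most, as at MSTN with 10 against 28 reads.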

Other observations

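The surroundings of the genes beyond 10 kb and up to 50 kb differed in how many open regions they held. FST and SMAD2 had none there, so that the 5 and 4 regions described are the only ones within 50 kb of these genes, while SMAD3 had 19, the INHBA entry 15 and MSTN 11. The 11 regions around MSTN held 674 Duroc and 398 Luchuan reads, a log2 ratio of -0.20 (-0.38 to -0.02). Taken singly, 7 of the 11 were higher in Luchuan and 4 in Duroc, with a median log2 ratio of 0.16. One of them was called, a Duroc-specific region on the side of lower coordinates, in no gene of the table and 24.2 kb away (chromosome 15, 94598843 to 94599368). It had 183 Duroc and 52 Luchuan reads, a log2 ratio of -1.23 (-1.73 to -0.80), and was better covered than the called region nearer to the gene.

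Around SMAD7, the 10 more distant regions held 1800 reads in Duroc and 1087 in Luchuan, a log2 ratio of -0.17 (-0.28 to -0.06). Those from 98567301 to 98567504 and from 98573280 to 98573544 were Duroc-specific and called, with 86 and 25 reads and 103 and 32 reads for Duroc and Luchuan and ratios of -1.18 (-1.93 to -0.56) and -1.09 (-1.75 to -0.54). On the other side of the gene, a weak Luchuan-specific region from 98477782 to 98477936 held 12 reads in Duroc and 18 in Luchuan, a ratio of 1.11 (0.01 to 2.33). Around TGFBR1 the sum of the 9 distant regions was 0.24 (0.08 to 0.41), and 1 of them, from 240831087 to 240831236 with 25 Duroc and 7 Luchuan reads, was called higher in Duroc. No distant region of the other genes was called. With the nearer regions included, 3 of the 179 regions within 50 kb were called higher in Luchuan and 4 in Duroc. Of all regions, 6.38% and 4.99% were called.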
